A study of Drosophila melanogaster with 72 samples.

Results

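Synaptic vesicle release genes encode the machinery with which a nerve terminal docks, primes, fuses and recovers its vesicles. The 10 genes described are brp, Syt1, n-syb, Syx1A, Snap25, cpx, Rop, comt, shi and Syn, taken by symbol from the 15240 annotated genes of a fruit fly expression table. All 10 symbols were found, and the values given are those of each gene's transcript with the highest mean FPKM. FPKM scales read fragments to transcript length and to library size, so it is a level per length. In flies as in other animals, a vesicle SNARE protein pairs with SNARE proteins of the plasma membrane, a calcium sensor times the fusion, and an ATPase takes the SNARE bundle apart afterwards. Active zone scaffolds hold the vesicles near calcium channels, and dynamin pinches new vesicles off the membrane. In the fly, temperature-sensitive alleles of shi and comt paralyse the animal when it is warmed.

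The study measured polyA RNA of Oregon R male Drosophila melanogaster under time-restricted feeding (TRF) or ad libitum feeding (ALF), in the heart, the head and the periphery, which is the whole body without the head. All flies were kept at 25 °C on cornmeal medium, which for the TRF flies alternated with plain agar and water. Heads and peripheries were collected at 3, 5 and 7 weeks of age and hearts at 5 weeks, at zeitgeber times (ZT) 0, 6, 12 and 18 h, with every 3 h at week 5 for head and periphery. Each combination of tissue, week, feeding and time had 1 library, so the times stand in for replicates, and every p-value measures only the spread between these libraries, since the labels do not say how many flies each holds.

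The photoreceptor opsin gene ninaE served as a check of tissue, because it is a marker of the eye. Of the 72 libraries, 6 labelled head had ninaE under 1000 FPKM and 6 labelled periphery had it above that level, and these 12 were left out. The left-out libraries also differed from their labels in n-syb, at 19.7 to 28.5 FPKM in the 6 labelled head and 394.4 to 702.8 FPKM in the 6 labelled periphery. The 60 libraries used were 8 of heart, 26 of head and 26 of periphery. Depth ran from 7.78 to 23.7 M counted reads in hearts, 0.21 to 18.6 M in heads and 6.48 to 21.7 M in peripheries. Heads of week 3 (0.21 to 2.30 M) and week 7 (1.10 to 3.92 M) were shallower than most heads of week 5 (2.06 to 18.6 M), so head values of those weeks are less precise. In the shallowest head library, the week 3 TRF library of ZT12, n-syb rested on 129 reads, brp on 17 and Syx1A on 5. Its depth of 0.21 M was read from the steps between its low values, of which 55.5% were odd multiples of 1 step, where at double that depth every read number would be even. A head library of week 5, ALF at ZT15, stood apart from the other 12 heads of that week, with n-syb at 58.4 FPKM against a median of 641.3. Most results on the 10 genes that rest on it are given with and without it.

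The vesicle SNARE n-syb (neuronal Synaptobrevin, CG17248, chr3L:1632193-1637752, minus strand, dm3 build as are all positions here) had the highest level of the 10 in heads. It lay at 1.24 to 5.79 FPKM with a median of 2.80 in hearts, at 58.4 to 782 FPKM with a median of 602.4 in heads, and at 17.7 to 28.9 FPKM with a median of 23.1 in peripheries. Its ranges in the 3 tissues did not overlap, and how many of all genes share this was not counted. The plasma membrane SNARE Snap25 (CG40452, chr3L:24067329-24292305, plus strand) had medians of 0.796 FPKM in hearts (0.325 to 1.06), 65.7 FPKM in heads (44.7 to 84.1) and 4.04 FPKM in peripheries (2.91 to 7.59). Syx1A (Syntaxin 1A, CG31136, chr3R:19929101-19931465, minus strand), the other plasma membrane SNARE, had the lowest median of the 10 in heads. It had 3.51 to 8.87 FPKM in hearts (median 5.22), 5.66 to 35.4 FPKM in heads (median 12.7) and 4.31 to 8.44 FPKM in peripheries (median 7.00), and these ranges overlapped.

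Among the proteins that handle SNAREs, Rop (the fly Munc18 homologue, a syntaxin-binding protein, CG15811, chr3L:4136788-4138996, minus strand) was the highest of the 10 in both hearts and peripheries. Its levels were 45.4 to 63.3 FPKM in hearts (median 52.8), 32.4 to 138 FPKM in heads (median 117.2) and 41.9 to 59.1 FPKM in peripheries (median 51.8). The comt gene (the NSF ATPase that dismantles SNARE complexes, CG1618, chrX:13153030-13156521, plus strand) had medians of 1.26 FPKM in hearts (0.764 to 1.98), 78.7 FPKM in heads (30.7 to 99.6) and 12.2 FPKM in peripheries (10.4 to 14.3). The ranges of comt were separate in all 3 tissues, as were those of n-syb, Syt1, Snap25 and Syn. How many of all genes separate in this way was not counted. Tissue differences were common, with 9634 of 12302 genes called for head minus periphery at week 5.

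The calcium sensor Syt1 (Synaptotagmin 1, CG3139, chr2L:2779267-2799979, minus strand) had 0.403 to 0.966 FPKM in hearts (median 0.845), 17.5 to 89.6 FPKM in heads (median 66.1) and 2.79 to 6.30 FPKM in peripheries (median 4.20). Complexin, cpx (a clamp and helper of SNARE fusion, CG32490, chr3R:108172-127263, plus strand), was the second of the 10 in heads, with 14.4 to 24.4 FPKM in hearts (median 19.7), 133.9 to 339 FPKM in heads (median 264.2) and 15.2 to 25.4 FPKM in peripheries (median 19.2). Heart and periphery thus covered nearly the same range of cpx levels.

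Bruchpilot, brp (the scaffold of the active zone, CG42344, chr2R:5391270-5428822, plus strand), had medians of 0.276 FPKM in hearts (0.124 to 0.546), 27.3 FPKM in heads (8.82 to 45.4) and 2.79 FPKM in peripheries (1.43 to 18.0). Synapsin, Syn (a phosphoprotein that tethers reserve vesicles, CG3985, chr3R:6016411-6048164, plus strand), had medians of 11.2 FPKM in hearts (9.21 to 13.7), 48.4 FPKM in heads (31.2 to 71.2) and 7.16 FPKM in peripheries (4.64 to 9.09). Dynamin, shibire or shi (the GTPase of vesicle scission, CG18102, chrX:15786922-15800285, plus strand), had medians of 17.8 FPKM in hearts (13.9 to 23.8), 71.1 FPKM in heads (16.1 to 86.0) and 34.6 FPKM in peripheries (29.7 to 39.5). Hearts had the lowest median of the 3 tissues for brp and shi, whereas for Syn the peripheries did.

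**Figure D1:**
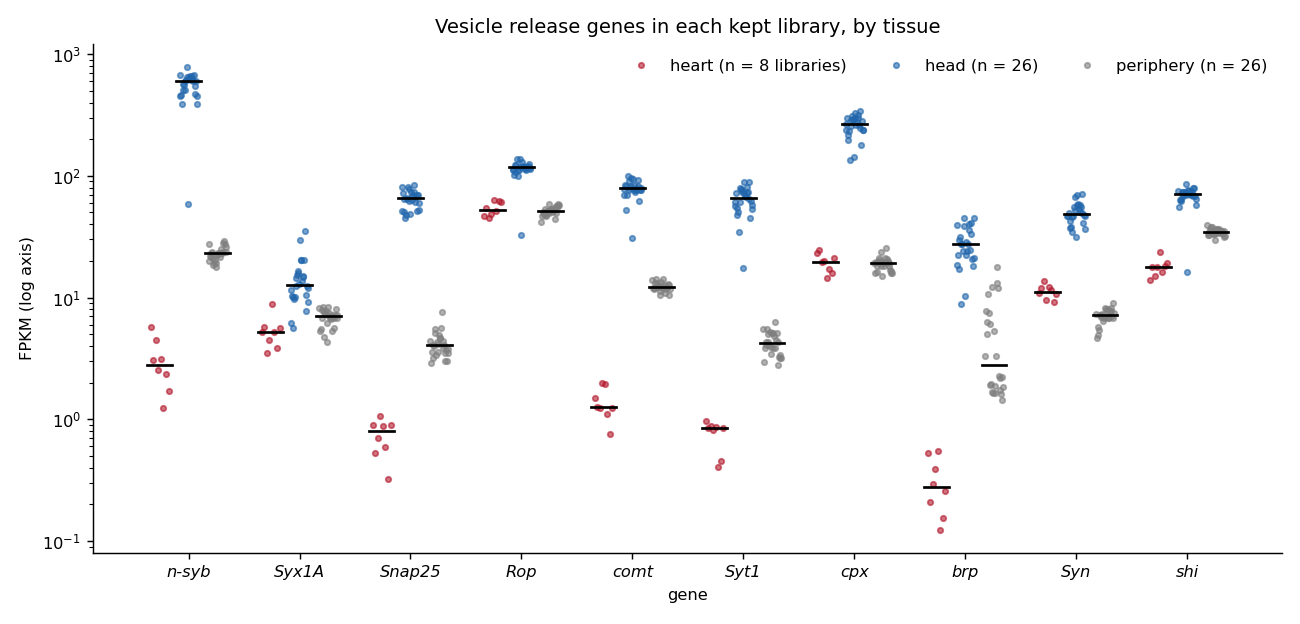
FPKM of each of the 10 genes on a log axis, with 1 point per library for heart (8), head (26) and periphery (26) and a bar at each median. The n-syb median was 2.80 in hearts, 602.4 in heads and 23.1 in peripheries, while the Rop points of heart and periphery share the range from 45.4 to 59.1.

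Within heads the order of the levels was n-syb, cpx, Rop, comt, shi, Syt1, Snap25, Syn, brp and Syx1A. Most neighbours in that order held their place in nearly every library, such as Rop above comt in 26 of 26 and n-syb above cpx in 25 of 26. The middle of the order was not resolved, because shi exceeded Syt1 in 15 of 26 heads and Syt1 exceeded Snap25 in 10 of 26. In peripheries Rop came first and shi second, and the lower end of the order was mixed, with Syn above Syx1A in 13 of 26 libraries and Snap25 above brp in 15 of 26. In hearts Rop exceeded cpx in 8 of 8 libraries, and Syt1 and Snap25 could not be ordered, at 4 of 8. The number of transcripts in the annotation differed widely between the genes, from 2 each for Syx1A, Rop and comt to 23 for cpx, so levels compared between genes are those of the most abundant transcript alone.

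In heads against peripheries, all 10 genes were higher at week 5. The differences on the log2(FPKM + 1) scale, from limma's moderated test with Benjamini-Hochberg adjustment over 12302 genes, were largest for n-syb at 4.60 (SE 0.17), cpx at 3.77, Snap25 at 3.67 and Syt1 at 3.63. They were intermediate for Syn at 2.78, comt at 2.53 and brp at 2.51. They were smallest for Syx1A at 1.28, Rop at 1.08 and shi at 0.94. Without the ALF head library of ZT15 n-syb stood at 4.82 (SE 0.08) and shi at 1.07, and all 10 were still called. Of all genes tested at week 5, 34.8% were called higher in heads and 43.6% lower, and the median difference was 2.66 over the 10 genes against -0.09 over all genes. At week 3, 9 of the 10 were called higher in heads, with 30.9% of all genes called higher, and at week 7 again 9 of 10, with 24.4% of all genes. The gene not called in those weeks was Syx1A, at 0.35 (SE 0.18, adjusted p = 0.0847) in week 3 and 0.43 (SE 0.21, adjusted p = 0.076) in week 7. A bulk library cannot tell apart fewer neurons and less RNA per neuron, and the summed level of 11 neuron marker genes differed in the same direction, at 193.5 to 612 FPKM in heads and 36.2 to 65.1 FPKM in peripheries.

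**Figure D2:**
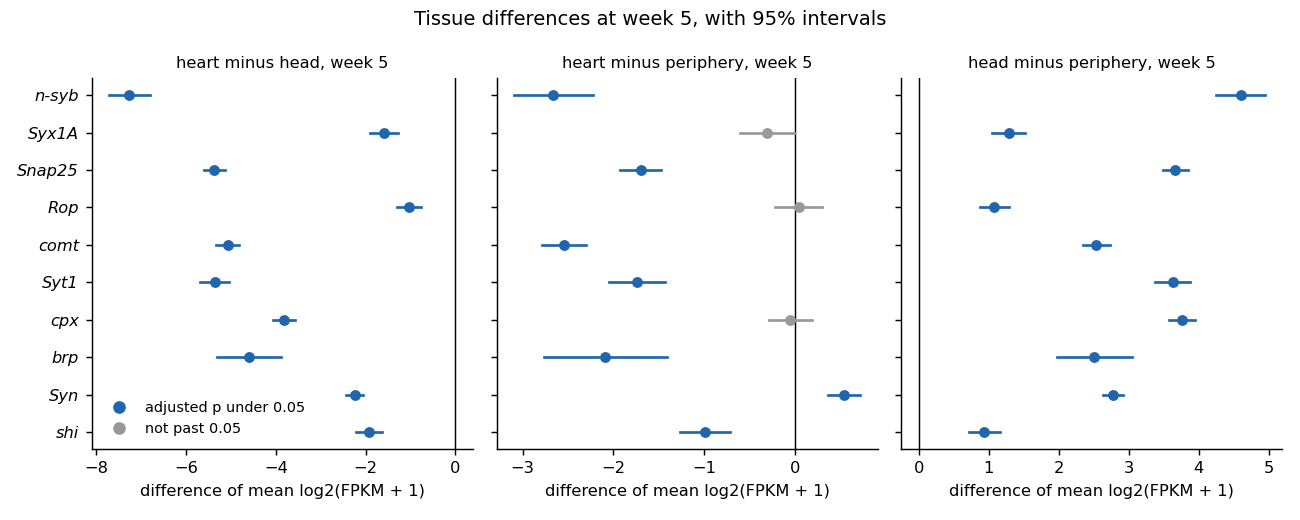
Differences of log2(FPKM + 1) with 95% intervals for the 10 genes at week 5, for heart minus head, heart minus periphery and head minus periphery, with 0 marked by a line and gray points not past an adjusted p of 0.05. All 10 points of heart minus head lie below 0, all 10 of head minus periphery above it, and those of heart minus periphery run from -2.66 for n-syb to 0.54 for Syn.

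In hearts against heads at week 5, all 10 genes were lower, where 45.9% of all genes were called lower and 30.1% higher. The size of the difference set the genes apart. Expressed as a share of the mean of the 13 week 5 heads, the heart mean was 0.505% for n-syb, 1.07% each for brp, Snap25 and Syt1, and 1.78% for comt. It was 6.89% for cpx, 20.03% for Syn, 25.4% for shi, 28.3% for Syx1A and 48.1% for Rop. Without the ALF head library of ZT15 these shares ran from 0.469% for n-syb to 45.4% for Rop. For comparison, 11 photoreceptor genes, which mark the eye, had heart means of 0.212% to 2.28% of their means in the 13 heads. On the log2(FPKM + 1) scale the limma differences ran from -7.26 (SE 0.23) for n-syb to -1.04 (SE 0.13) for Rop, or -7.39 and -1.11 without the ALF head library of ZT15, and that scale understates the change of genes under 1 FPKM.

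The photoreceptor genes summed to 40.7 to 163 FPKM in the 8 hearts, 23950 to 47270 FPKM in heads and 4.75 to 12.5 FPKM in peripheries. Across the 8 hearts, n-syb levels followed ninaE levels, with Pearson's r of 0.876 (exact permutation p = 0.00228, adjusted 0.0114 over the 10 genes) and Spearman's rho of 0.905 (exact permutation, adjusted p = 0.0456). Syt1 gave r of 0.867 (adjusted p = 0.0114 by the exact permutation test) with rho of 0.833 (adjusted 0.0726). For brp, r was 0.776 (adjusted p = 0.0169 by the same exact test) with rho of 0.81 (adjusted 0.0726). Without the 2 hearts farthest from the ninaE median r was 0.689 for n-syb, 0.769 for Syt1 and 0.685 for brp, and none passed over the 6 hearts left, with exact permutation p of 0.128, 0.119 and 0.117. The other 7 genes did not pass, among them Syx1A with r of 0.017 and Syn with r of 0.0412. Within a feeding group there were 4 hearts, too few for a correlation. Whether head RNA in the heart libraries contributes to their n-syb, Syt1 and brp levels was not tested.

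In hearts against peripheries at week 5, 6 genes were called lower, where 63.3% of all genes were. These were n-syb at -2.66, comt at -2.54, brp at -2.09, Syt1 at -1.74, Snap25 at -1.70 and shi at -0.99 on the log2(FPKM + 1) scale. Syn was called higher at 0.54, where 15.5% of all genes were. The Timp gene shares 249 exon bases with Syn on the opposite strand, and these libraries are unstranded. Timp was also higher in hearts, by 0.82 (SE 0.09, limma adjusted p = 1.8e-11). The part of Timp reads in the heart levels of Syn was not tested. The values of Syx1A (-0.31, adjusted p = 0.0536 by limma), cpx (-0.05) and Rop (0.04) did not pass. The median of all genes in this comparison was -0.61, and relative to it Syn stood at 1.15, Rop at 0.65, cpx at 0.56 and Syx1A at 0.30, with shi at -0.38 and n-syb at -2.05. The calls depend on the scaling. Median-of-ratios rescaling moved the median of all genes by 0.35 and added Rop (0.49) and cpx (0.39) to the genes called higher. Quantile normalization moved it by 1.02, called Syx1A (1.32), cpx (0.87) and Rop (0.62) higher beside Syn, and no longer called Snap25, Syt1 or shi. Under either scaling n-syb, comt and brp stayed lower in hearts.

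Several of the 10 have a close relative that serves membrane fusion in every cell, and 4 such pairs were compared by the ratio of the neuronal gene to its relative. For n-syb, Snap25 and comt the ranges of this ratio did not overlap between tissues. How often other gene pairs separate in this way was not counted. Most genes differed between tissues, with 9634 of 12302 called for head minus periphery at week 5. The ratio of n-syb to Syb, the general Synaptobrevin, had a median of 0.0078 in hearts, 4.35 in heads and 0.110 in peripheries, and n-syb exceeded Syb in 0 of 8 hearts, 25 of 26 heads and 0 of 26 peripheries. Syb itself was highest in hearts, at 296.7 to 446.7 FPKM, against 100.8 to 184.8 FPKM in heads and 171.2 to 258.3 FPKM in peripheries. Snap25 over Snap24 had medians of 0.027 in hearts, 1.95 in heads and 0.207 in peripheries. The ratio of comt to Nsf2, the second fly NSF gene, had medians of 0.050, 2.91 and 0.431 in hearts, heads and peripheries. Syx1A over Syx4 had ranges that overlapped in all 3 tissues, at 0.255 to 0.862 in hearts (median 0.555), 0.413 to 3.46 in heads (median 1.18) and 0.239 to 0.785 in peripheries (median 0.407), and Syx1A was the higher of the pair in 17 of 26 heads.

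Other genes of the same machinery were read from 4 lists, to be set beside the 34.8% of all genes called higher and 43.6% lower for heads against peripheries at week 5, and the 30.1% higher and 45.9% lower for hearts against heads. Of 10 active zone genes, 8 were higher in heads than in peripheries at week 5, led by CG43955 (annotated for the symbol Fife) at 3.71, Nrx-1 (neurexin) at 3.52, Rbp (RIM-binding protein) at 3.18 and Rim at 3.09, and Nlg1 (neuroligin 1) was lower at -0.80. Of 13 vesicle membrane and transporter genes, all 13 were higher in heads, from Syt4 at 3.94, synaptogyrin at 3.89 and Rab3 at 3.37 down to Csp (cysteine string protein) at 0.57, and all 13 were lower in hearts than in heads. The list medians for heads against peripheries were 2.93 and 3.19, against 2.66 for the 10 release genes. Of 14 vesicle endocytosis genes, 12 were higher in heads with a median of 0.67, led by stnA and stnB (stoned, 3.74 each with identical values in the table), endoA (endophilin) at 1.49 and synj (synaptojanin) at 1.38. In hearts against heads, 7 of these 14 were higher and 6 lower. Of 18 general SNARE and fusion genes, 10 were higher and 5 lower in heads than in peripheries, with Snap (the alpha-SNAP adaptor) at 1.23, Syb at -0.64 and Syx18 at -0.84. In hearts against heads, 4 of these 18 were higher, usnp (the fly SNAP-29) at 1.95, Syb at 1.30, Syx13 at 0.69 and Syx8 at 0.36. Another 6 were lower, among them Syx6 at -1.59, Snap at -1.07 and Syx16 at -0.91, and 8 were not called.

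Feeding was compared between TRF and ALF libraries of the same tissue, week and ZT. No gene of the 10 was called in any tissue or week by limma, and in heads no gene at all of 9879 was called (0.0%), with 750, 140 and 310 genes at an unadjusted p under 0.05 in weeks 3, 5 and 7. A limma-voom fit on reads recovered from the FPKM steps also called 0 head genes in each week. Averaged over the weeks, the head differences of the 10 genes lay between -0.15 for Snap25 (95% interval -0.41 to 0.11) and 0.21 for Syx1A (-0.12 to 0.55). The widest interval was that of n-syb, at 0.15 (-0.47 to 0.78), and the narrowest were those of Syn, at -0.03 (-0.29 to 0.22), and Snap25. Without the ALF library of ZT15 the same differences were -0.03 (SE 0.09) for n-syb, -0.18 for Snap25 and 0.21 for Syx1A.

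In heads of week 5 the values of n-syb were 604.2 to 678.3 FPKM with a median of 640.8 in the 6 TRF libraries and 58.4 to 782 FPKM with a median of 638.3 in the 7 ALF libraries. Those of Rop were 111.5 to 118.5 FPKM (median 117.2) under TRF and 32.4 to 137 FPKM (median 118.6) under ALF. All 10 fitted differences were above 0, with a median of 0.22 against 0.04 over all genes, none of them called. Without the ALF library of ZT15 the median of the 10 was 0.02, 6 of 10 were above 0, and the n-syb difference of 0.59 became 0.03.

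That library was the lowest of the 13 week 5 heads for all 10 genes. It had 9.11% of the median of the other 12 week 5 heads for n-syb, 22.0% for shi, 23.9% for Syt1, 27.5% for Rop, 36.6% for brp and 38.6% for comt. The shares were higher for cpx (48.2%), Syn (54.9%), Snap25 (70.1%) and Syx1A (79.2%). Of the 11 neuron markers, 4 were read in the same library. They were split, with Appl at 9.83%, elav at 89.2%, para at 91.6% and fne at 103.6% of the others. Those 4 do not stand for the whole list. The lowest sum of all 11 in any of the 26 heads was 193.5 FPKM (median 447.4), and which library held it was not read. The glial gene repo stood at 32.5%, the muscle gene Mhc at 39.8% and ninaE at 50.3%. These genes do not stand for glia, muscle or eye as a whole. The lowest level in any of the 26 heads, this library included, was 690.3 FPKM for the glial gene Gs2 (median 857.3). It was 107.4 FPKM for the muscle gene wupA (median 124.3) and 7851 FPKM for the photoreceptor gene Arr2 (median 10370). The muscle gene Mf reached lower, to 73.49 FPKM (median 253.7). In the ALF library of ZT15 the 4 shorter n-syb transcripts (1101 to 1453 bases) stood at 8.64% to 14.1% of the others. The 4 longer ones (3018 to 3559 bases) stood at 48.6% to 51.8%. Whether RNA quality or the makeup of that library set these values was not tested.

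**Figure D3:**
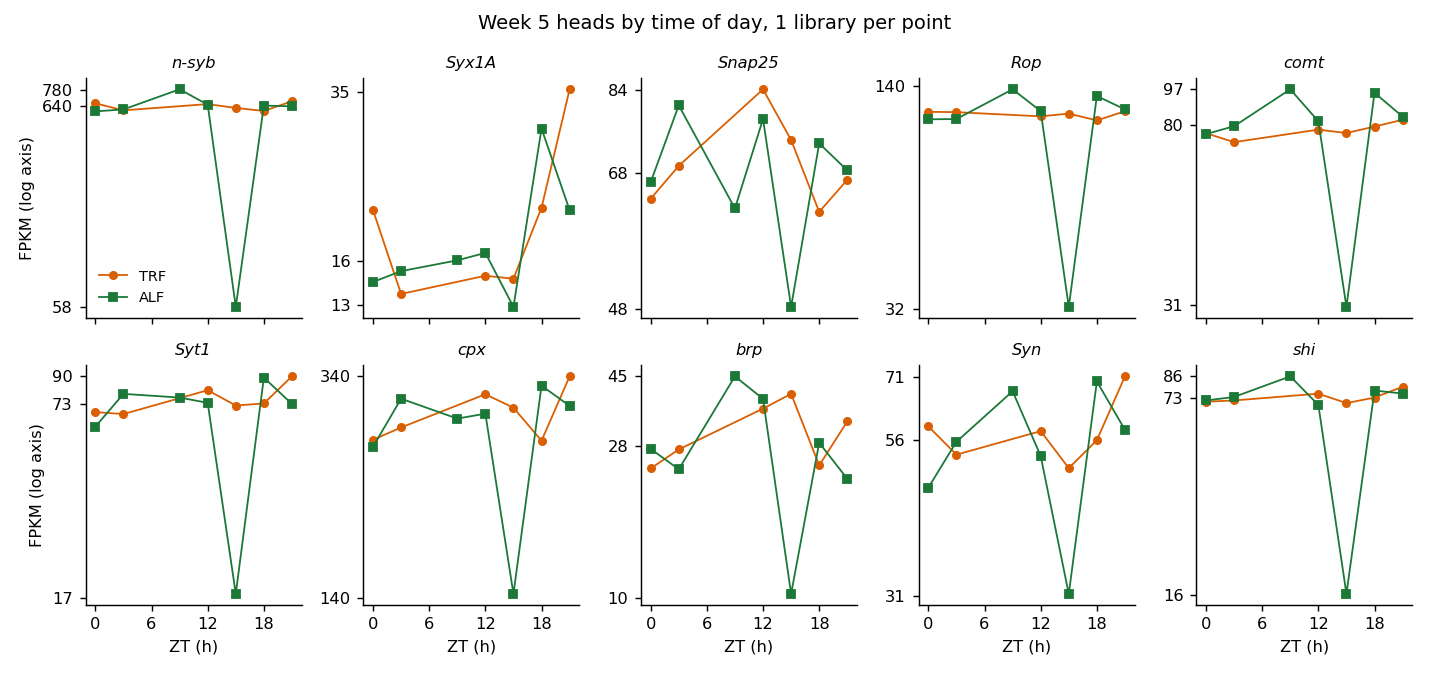
FPKM of the 10 genes in week 5 heads, on log axes scaled to each gene, against zeitgeber time in hours, with 1 point per library for TRF (6 libraries) and ALF (7 libraries). The ALF point at ZT15 is the lowest of its series for n-syb at 58.4 FPKM, and the Syx1A points rise to 35.4 FPKM in the TRF library of ZT21.

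In hearts, n-syb had 3.15, 1.24, 2.34 and 1.72 FPKM in TRF hearts at ZT0, 6, 12 and 18, against 5.79, 3.06, 4.46 and 2.54 FPKM in ALF hearts at the same times. It was lower under TRF in 4 of 4 pairs, although the groups overlapped, and the difference was -0.66 (95% interval -1.02 to -0.31, limma adjusted p = 0.708 over 9726 genes). The same libraries differed in ninaE, which averaged 41.4 ± 15.0 FPKM in TRF hearts and 63.9 ± 15.6 FPKM in ALF hearts (SD, n = 4 each). The part of that marker in the n-syb difference was not tested. No heart gene was called (0.0%), with 635 at an unadjusted p under 0.05, and limma-voom also called 0. The mean levels of brp, Syt1 and Snap25 were under the filter of 1 FPKM in hearts, so 7 of the 10 genes were tested there. Rop averaged 59.3 ± 5.3 FPKM in TRF hearts and 48.7 ± 3.9 FPKM in ALF hearts, and cpx 17.1 ± 2.8 and 21.8 ± 2.5 FPKM in TRF and ALF hearts (SD, n = 4 each), neither of them called (adjusted p = 0.708 each by limma).

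In peripheries, 20 of 12001 genes were called at week 7 (0.167%) and none of the 10, and 0 genes in weeks 3 and 5, where 744 and 629 had an unadjusted p under 0.05 and limma-voom called 0. The gene of the 10 closest to a call at week 5 was n-syb, at 21.6 to 25.1 FPKM (median 23.2) in the 8 TRF libraries and 17.7 to 23.6 FPKM (median 19.9) in the 8 ALF libraries. TRF exceeded ALF in 7 of 8 pairs, by 0.19 (SE 0.05, limma adjusted p = 0.873). Averaged over the weeks, Syn stood at 0.16 (95% interval 0.05 to 0.27, limma adjusted p = 0.21), where 1 gene was called (0.00833%), and the interval of Rop was -0.11 to 0.11. The interval of comt was -0.17 to 0.08 and that of shi -0.10 to 0.12, whereas that of brp ran from -0.85 to 0.97.

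**Figure D4:**
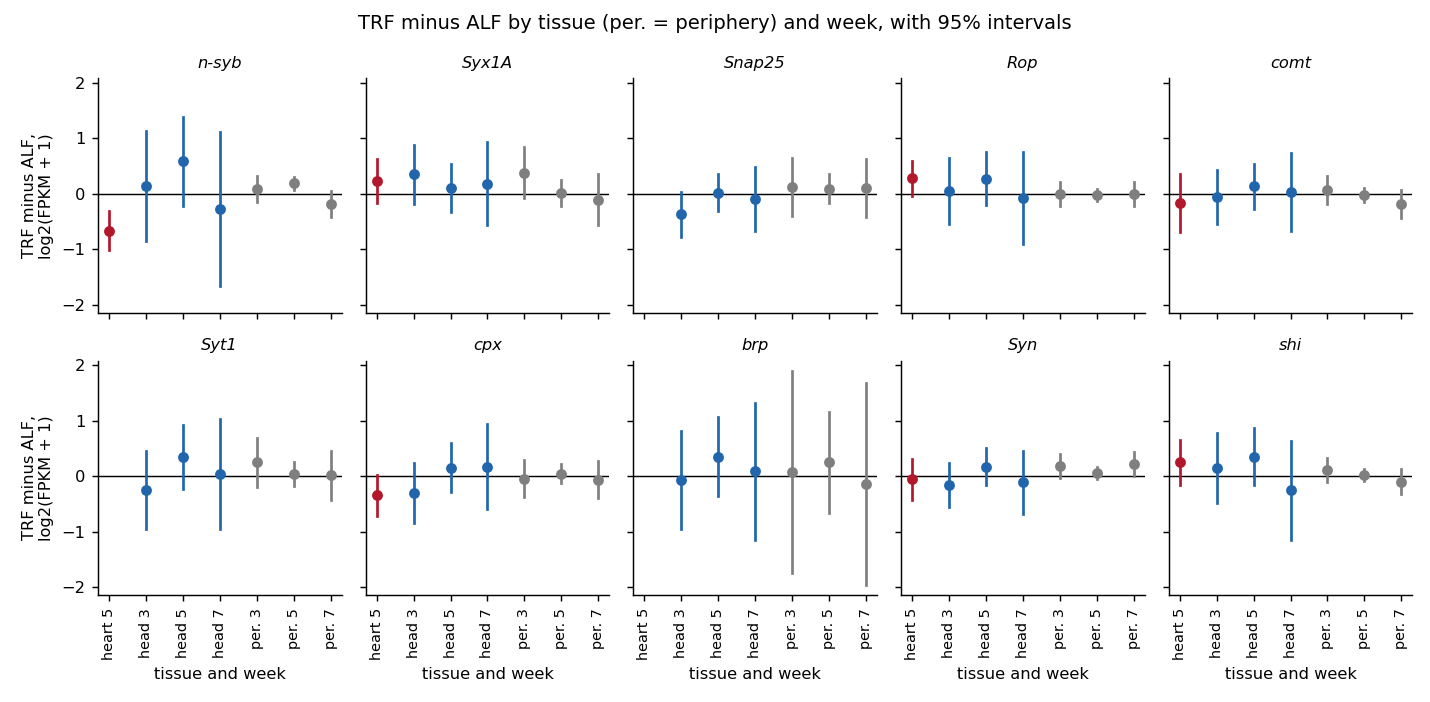
TRF minus ALF differences of log2(FPKM + 1) for each of the 10 genes in heart, head and periphery by week, with 95% intervals and a line at 0. No point was called, and the n-syb point in hearts, at -0.66, has an interval from -1.02 to -0.31.

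Age was compared between weeks at ZT0, 6, 12 and 18 within a tissue. In heads, none of the 10 genes was called between any weeks, against 5 of 9842 genes (0.0508%) for week 5 minus week 3, 0 genes for week 7 minus week 3 and 1 gene (0.0102%) for week 7 minus week 5. At an unadjusted p under 0.05, 402 genes differed between weeks 7 and 3, and limma-voom also called 0. All 10 values of week 5 minus week 3 were above 0, with a median of 0.31 against 0.08 over all genes. The largest was Syx1A at 0.90 (SE 0.20, limma adjusted p = 0.168), followed by brp at 0.44 and Syn at 0.40 (adjusted p = 0.228). For week 7 minus week 3 the values ran from -0.11 for n-syb to 0.19 for brp, and the difference between TRF and ALF in that change was called for none of the 10 in either tissue.

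Syx1A had 5.66 to 12.4 FPKM in the 8 heads of week 3 (median 10.1). In the 13 heads of week 5 it had 12.9 to 35.4 FPKM (median 16.02), so these ranges did not overlap. How many of all genes separate in this way between those weeks was not counted. The week 5 heads include ZT3, 9, 15 and 21, which week 3 lacked, and the 35.4 FPKM was the TRF library of ZT21. In week 7 Syx1A had 9.11 and 11.9 FPKM in TRF heads and 10.5, 7.76 and 12.4 FPKM in ALF heads. All lay inside or near the week 3 range. In a fit of all tissues the head minus periphery difference of Syx1A was 1.28 at week 5 and 0.35 at week 3, and the change of 0.93 (SE 0.22, limma adjusted p = 0.0319) was the only one called among the 10, where 0.536% of all genes were. The same change was called for none of the 10 between weeks 7 and 3 (0.813% of all genes) or weeks 7 and 5 (0.0244%), except that n-syb at -0.55 became -0.77 (limma adjusted p = 0.0173) without the ALF head library of ZT15. These contrasts were added after the values were seen. The call was lost with the longest transcript of each gene (0.82, adjusted p = 0.0755) and when ZT6, 12, 18 or 21 was left out (0.78 to 0.98, adjusted p = 0.0649 to 0.301), and it was kept without the ALF head library of ZT15 (0.95). The 4EHP gene lies on the same strand and shares 447 exon bases with Syx1A, and its own change was -0.17 (limma adjusted p = 0.86). Week 3 heads had as few as 5 reads on Syx1A, against at least 64 in week 5 heads, and depth and week cannot be told apart.

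In peripheries, Syn was the gene of the 10 called with age. It had 9.09 and 7.53 FPKM in TRF peripheries and 7.71, 7.09 and 6.85 FPKM in ALF peripheries of week 7, against 5.76 and 5.38 FPKM in TRF and 7.35, 4.64 and 4.89 FPKM in ALF peripheries of week 3. The means were 7.65 ± 0.87 FPKM in week 7 and 5.61 ± 1.07 FPKM in week 3 (SD, n = 5 each), and the ranges overlapped through the ALF library of ZT6 in week 3. The difference was 0.41 (SE 0.09, limma adjusted p = 0.0204), where 7.83% of 12002 genes were called and 6.28% were higher. The call was lost under median-of-ratios rescaling (0.29, adjusted p = 0.0762) and quantile normalization (0.34, adjusted p = 0.0576), and without the libraries of ZT12 (adjusted p = 0.515) or ZT18 (adjusted p = 0.162). Within a feeding group the Syn difference was 0.50 under TRF and 0.33 under ALF, neither called, where 1.27% and 1.56% of genes were. The Timp gene lies on the opposite strand and shares 249 exon bases with Syn, and in these unstranded libraries reads of both cannot be told apart there. Timp rose by 0.86 (SE 0.09, limma adjusted p = 0.00046) in the same comparison.

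The other 9 genes were not called between weeks 7 and 3 in peripheries. Rop stood at 0.26 (adjusted p = 0.0533 by limma), n-syb at 0.22, Syt1 at -0.29 and brp at -1.44 (SE 0.46, adjusted p = 0.075). Between weeks 5 and 3, 4.0% of genes were called, and between weeks 7 and 5, 1.54%, with none of the 10 among them. Of the 55 partner genes of the 4 lists, 50 were tested and 5 called, where 7.83% of all genes were. Syb (0.43), AP-2sigma (0.41), CG1599 (Vamp7 in the list, 0.32) and Syx13 (0.30) were higher and Nlg1 (-0.59) was lower in week 7 than in week 3 peripheries. Of the calls over all genes in this comparison, 80.2% were higher, and 29.1% with median-of-ratios rescaling.

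The brp value depends on the end of the transcript, and whether all reads on the extended 3′ end come from brp itself was not tested. Its transcript with the highest mean FPKM is 1 of 4 with an extended 3′ end. Another 5 end earlier, among them one of 5542 bases at 5397357 to 5424980. The extended and the short-ended transcript overlap in position and can share reads, so their ratio is not one of isoform amounts. In peripheries the ratio of the extended to the short-ended transcript ran from 0.896 to 13.5 with a median of 1.745, and in the TRF library of week 5 at ZT9 the extended one had 18.0 FPKM and the short-ended one 1.34 FPKM. In heads the ratio ran from 0.965 to 8.65. With the short-ended transcript in its place, brp was 1.57, 2.56 and 1.58 higher in heads than in peripheries at weeks 3, 5 and 7, against 1.63, 2.51 and 3.39 with the extended one. The week 7 minus week 3 value in peripheries became -0.20 (limma adjusted p = 0.40), and heart minus periphery became -1.07.

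**Figure D5:**
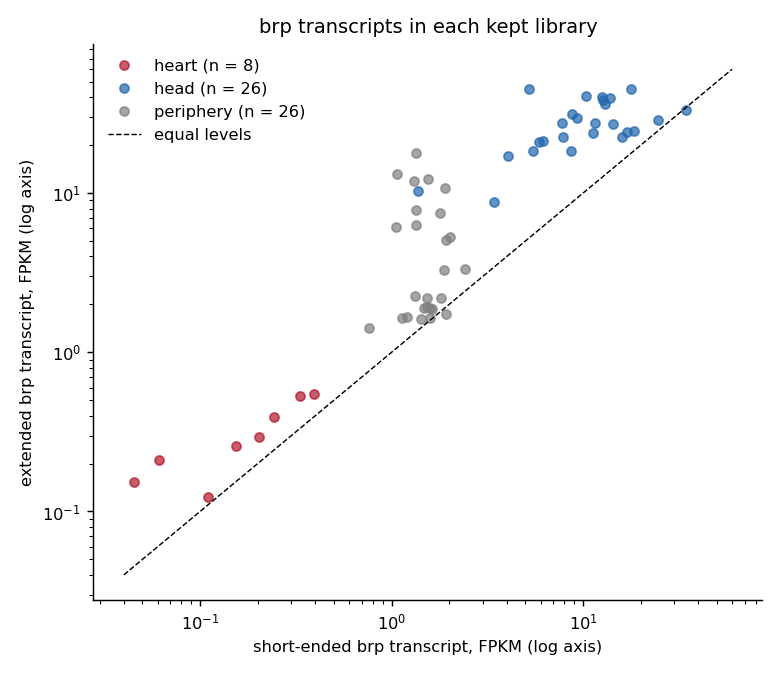
FPKM of the extended brp transcript against that of the short-ended transcript on log axes, with 1 point per library in heart, head and periphery and a line of equal values. Periphery points spread from near the line, at a ratio of 0.896, to a ratio of 13.5.

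Time of day was tested at week 5 as a 24 h cosine. None of the 10 genes was called in heads or hearts, where no gene was (0.0% each, with 668 and 1009 genes at an unadjusted p under 0.05 by limma, and 0 and 3 genes called by limma-voom), or in peripheries, where 29 genes were (0.242%). In heads the largest log2 amplitude was that of n-syb at 0.47 (adjusted p = 0.869 by limma), which includes the ALF library of ZT15. Syx1A had 0.40 with a peak at ZT19.9 (adjusted p = 0.782 by limma). Without that library the amplitude was 0.06 for n-syb (adjusted p = 0.706 by limma) and 0.44 for Syx1A (adjusted p = 0.346), and 1 gene of 9847 was called. Its TRF heads had 20.2, 13.7, 14.9, 14.7, 20.4 and 35.4 FPKM at ZT0, 3, 12, 15, 18 and 21, and its ALF heads 14.5, 15.2, 16.02, 16.6, 12.9, 29.5 and 20.2 FPKM at ZT0, 3, 9, 12, 15, 18 and 21. The highest values of both feeding groups thus fell at ZT18 or ZT21, in 1 library each. In peripheries brp, by its extended transcript, had the largest amplitude at 0.71 (adjusted p = 0.273 by limma). In those libraries that transcript ran from 1.64 to 18.0 FPKM and the short-ended one from 1.05 to 2.02 FPKM. A rhythm that differed between TRF and ALF was called for none of the 10 in head or periphery.

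The genes varied among libraries to different degrees. Over the 26 heads the coefficient of variation was 16.5% for Rop and 18.5% for shi, and without the ALF library of ZT15 it was 7.6% and 9.83%. For Syx1A it was 46.6% with that library and 47.3% without it, and for brp 35.5% and 33%. In peripheries shi varied least at 6.25% and brp, by its extended transcript, most at 88.1%. The 5 genes whose head profile was most like the mean log2(FPKM + 1) of the 10, over 26 heads and 7955 genes, were mun (r = 0.98), Spred (0.978), gw (0.973), Hs3st-A (0.972) and Gug (0.97). Those libraries share depth differences and the ALF library of ZT15, without which mun (0.954) and Spred (0.946) were still first and second and the other 3 ranked 8, 11 and 13.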

How the data were processed

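The authors deposited FPKM values for 29260 transcripts of 15240 genes in 72 libraries, from unstranded polyA libraries per the labels' protocols. CASAVA 1.8.2, STAR 2.2.0c, HOMER and the dm3 build are named in the submitters' processing notes, without their settings. The members and lists were chosen with earlier results of these data known. All 10 genes are named. Of the other lists, genes past the threshold are named by size of change, up to 8 per list and comparison, and the 5 genes most like the members by correlation in heads.

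Libraries were left out by ninaE at 1000 FPKM. Low FPKM values are whole multiples of 1 read (100.0% of values checked within 0.03 of a whole number), which gave each library's reads. These reads cover counting error only and a value from under about 10 of them is imprecise.

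Genes averaging 1 FPKM or more over the libraries of a fit were tested on log2(FPKM + 1) with limma 3.58.1 (R 4.3.3), trended empirical Bayes, Benjamini-Hochberg over all genes tested and a threshold of 0.05. Tissue fits used group means plus ZT, feeding fits week and ZT blocks, age fits group means plus ZT, and rhythm fits cosine and sine terms of 24 h. Tests were checked on simulated data. Correlations used exact permutation for up to 8 libraries and 100000 random permutations for 13 or 26 (scipy 1.17.1), with figures by matplotlib 3.10.9. Alternatives were other pseudocounts, filters, scalings, transcripts, blocks, all libraries, limma-voom and each ZT left out.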

Additional observations from a re-analysis of the deposited data

Results flagged for a closer look

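A library lay far from the others of its group, by the gap to its nearest neighbour over the group's range, for 11 of 80 gene and group pairs. Chance gives about 1 in 20 for independent pairs. Genes of the same library are not independent, so the count cannot be weighed against that share. In the head library of week 5 ALF at ZT15 this held for n-syb at 58.43 FPKM, cpx at 142.6, Rop at 32.4, comt at 30.71, Syt1 at 17.48 and shi at 16.09 FPKM. In week 3 TRF heads, brp had 8.816 FPKM at ZT12, the shallowest library, and Syx1A had 12.41 FPKM at ZT18. In week 5 TRF peripheries, cpx had 25.37 FPKM at ZT9, Rop had 44.3 FPKM at ZT18 and Syx1A had 5.35 FPKM at ZT12.

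The head minus periphery difference of Syx1A differed between weeks 5 and 3 by 0.9341 on the log2(FPKM + 1) scale, by limma's test of the change. This contrast was added after the values were seen. Its call was lost with the longest transcript, with all 72 libraries and when ZT6, 12, 18 or 21 was left out. In peripheries the TRF minus ALF differences of Syx1A, comt and shi had opposite signs in weeks 7 and 3. Each sign held in both pairs of its week. The difference was -0.1023 in week 7 and 0.38 in week 3 for Syx1A, -0.1855 and 0.07 for comt, and -0.0985 and 0.11 for shi. The age fit tested the change of this difference between weeks 7 and 3. That change was -0.18 for Syx1A, -0.15 for comt and -0.14 for shi, none of them called (limma adjusted p = 0.993 each).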

How the results depend on the processing

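No called value changed sign. In heart minus periphery, cpx at -0.05 became 0.39 with median-of-ratios and 0.87 with quantile scaling, and Syx1A at -0.31 became 1.32 with quantile scaling, all 3 then called higher. With all 72 libraries the change of comt between weeks 7 and 5 in head minus periphery became -1.36. Values called under neither setting had another sign in 126 feeding, 159 age and 57 tissue results. In the feeding comparison all 195 counts of the 10 genes called and all 1877 single-gene values kept their side of the threshold under the alternatives. The same held for 95 such counts and 887 values of the 24 h rhythm. The count of the 10 genes called for periphery, week 7 minus week 3, was 1. It was 2 with no filter, with a minimum of 5 FPKM, with the longest transcript and without the ZT block, and 0 with median-of-ratios scaling, quantile scaling and all 72 libraries. For head minus periphery it was 9 at week 7 and 0 with all 72 libraries. For its change between weeks 5 and 3 it was 1, and 0 with all 72 libraries or the longest transcript. For its change between weeks 7 and 5 it was 0, but 6 with all 72 libraries, 2 with limma-voom and 1 without the ALF head library of ZT15. Leaving out each ZT gave counts of 0 to 1 for these changes between weeks and for periphery, week 7 minus week 3 and week 5 minus week 3. Without the ZT block, 1 gene was called for periphery week 5 minus week 3 and 1 for week 7 minus week 5. Over all genes the periphery TRF comparison of week 7 called 20 with the block and 2 without it. Over the alternatives other than all 72 libraries and each ZT left out it called 2 to 76. The same range was 0 to 4 for the head TRF comparison of week 3 (0) and 0 to 14 for that of week 7 (0). That range was 255 to 769 for periphery week 5 minus week 3 (480), 82 to 487 for week 7 minus week 5 (185), 2 to 100 for head week 5 minus week 3 (5), and for the changes of head minus periphery 34 to 2129 between weeks 5 and 3 (66), 27 to 209 between weeks 7 and 3 (100) and 0 to 1026 between weeks 7 and 5 (3). Pairs of equal week and ZT deviated together (r over 0.1) in 12 of 28 cases, with r from -0.427 to 0.441, so the block is not shown to pair them. Scaling moved the share of calls that were higher, for head minus periphery at week 5 at 44.4%, to 34.9% with median of ratios and 65.2% with quantile scaling. For heart minus head these were 39.6%, 62.5% and 56.2%, for heart minus periphery 19.7%, 36.1% and 64.0%, and for periphery week 7 minus week 3 80.2%, 29.1% and 58.5%. The causes were not tested. Depth limits week 3 and week 7 heads most, where Syx1A had as few as 5 reads in week 3 and 31 in week 7.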

Other observations

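Syx1A was compared across heads with the other 9 genes and the short-ended brp transcript, a family of 10 relations chosen after the values were seen. Over 26 heads Pearson's r with that transcript was 0.745 (adjusted p = 0.0002 by permutation) and Spearman's rho 0.79 (adjusted p = 0.0001, from the smallest p these permutations can give), and r was 0.839 without the 2 libraries farthest from the median. The relation was not particular to it. For Syn r was 0.757 and rho 0.834, and by rho Syt1 (0.745), n-syb (0.732), cpx (0.693) and shi (0.504) passed as well. The values over 26 heads also carry the differences of level and depth between weeks. In the 13 heads of week 5 the brp transcript had r of 0.744 and rho of 0.907, and Syn r of 0.691 and rho of 0.813. Syt1 (rho 0.67) and comt (rho 0.703) passed there by r and by rho. For n-syb, cpx, Rop and shi r passed (adjusted p of 0.0242 to 0.0464 by permutation) but rho did not (0.094 to 0.102). These 13 heads include the ALF library of ZT15, and values without it alone were not computed. Without the 2 libraries farthest from the median, r was 0.836 for the brp transcript, 0.666 for Syn, 0.527 for Syt1 and 0.702 for comt. It was then 0.594 for n-syb, 0.248 for cpx, 0.569 for Rop and 0.744 for shi. In the 8 heads of week 3 r was 0.697 for the brp transcript (adjusted p = 0.242 by exact permutation) and 0.229 for Syn, and no relation passed.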
